A study of Mus musculus with 34 samples.

Results

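The genes described here encode the proteins of the cytosolic ribosome, followed in 2 brain regions of juvenile mice 1 week after injections of saline, kainate or nicotine. A gene was included when a probe set's only platform symbol began with Rpl or Rps and a digit, or was Rplp0, Rplp1, Rplp2 or Rpsa. S6 kinases (Rps6k) and pseudogenes were left out, and 1 symbol, Rps4l, fell away as a pseudogene. The rule gave 34 genes on 47 of 12422 probe sets. They were 1 gene of the ribosomal stalk (Rplp0), 16 other genes of the large subunit and 17 of the small subunit. The brightest probe set stood for each gene. A further 39 probe sets listed a ribosomal protein gene beside other symbols and were kept apart, because it cannot be said which gene they measure.

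RNA was measured on Affymetrix oligonucleotide arrays, 1 per region and mouse. The mice were males, given 3 intraperitoneal injections 2 h apart on postnatal day 23, and those that survived were killed on postnatal day 30. The 6 groups were neocortex and hippocampus from 6 mice given saline, 5 given kainate at 15 mg/kg (an agonist of glutamate receptors that provokes seizures) and 6 given nicotine at 10 mg/kg (an agonist of nicotinic acetylcholine receptors). Both drugs were given in sterile saline, and the labels name neither a strain nor a genotype. Only survivors were sampled, and the labels do not say which neocortex and hippocampus came from the same mouse.

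A ribosome has a large and a small subunit, and nearly all of their proteins are needed in equal number, and most ribosomal protein genes are abundantly expressed in all cells. Many of their mRNAs begin with a run of pyrimidines, the terminal oligopyrimidine motif, through which mTOR signalling and the RNA-binding protein LARP1 control their translation. In neurons, ribosomes are found in cell bodies and in dendrites, where local translation takes part in synaptic plasticity.

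The sequences at the transcription start show the longest pyrimidine run near the annotated start in genes that were higher in the hippocampus. The windows below are from RefSeq (build GRCm38.p6) and run 5′ to 3′ on the gene's strand, from 60 bases before to 20 bases after the annotated start. Capitals mark the longest run of C and T within 20 bases of the start. Rplp0 (chr5:115559407-115559486, plus strand) is shown because it was called in every treatment. Rpl7a (chr2:26910747-26910826, plus strand), Rps10 (chr17:27635225-27635304, minus strand) and Rps18 (chr17:33955646-33955725, minus strand) are shown for their long runs. Rps4x (chrX:102189372-102189451, minus strand) is shown as a gene with a short run.
Rplp0: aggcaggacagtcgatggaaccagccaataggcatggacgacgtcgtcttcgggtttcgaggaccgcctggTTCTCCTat
Rpl7a: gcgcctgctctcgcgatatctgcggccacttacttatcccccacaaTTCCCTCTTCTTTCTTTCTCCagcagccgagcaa
Rps10: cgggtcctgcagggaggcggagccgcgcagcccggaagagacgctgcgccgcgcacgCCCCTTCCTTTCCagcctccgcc
Rps18: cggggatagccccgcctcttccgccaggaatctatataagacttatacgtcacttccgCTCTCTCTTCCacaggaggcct
Rps4x: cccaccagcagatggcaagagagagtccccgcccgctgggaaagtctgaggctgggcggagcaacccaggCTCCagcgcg

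The run was 21 bases long in Rpl7a, 13 in Rps10, 11 in Rps18, 7 in Rplp0 and 4 in Rps4x. Relative to the annotated start its first base lay at -14 in Rpl7a, -3 in Rps10 and -2 in Rps18. In Rplp0 and Rps4x it lay at 12 and 11, inside the annotated transcript, so the marked run there is not at the start. A run of at least 8 bases was present in 9 of the 28 ribosomal protein genes found in the promoter table (32.1%) and in 15.5% of 17492 protein-coding genes. Over windows of 300 bases, 250 before and 50 after the start, the letters CCGGAAG (bound by GABPA and other ETS factors, searched on both strands) were present in 12 genes (42.9%, against 11.9% of all genes). The letters AAGATGG (bound by YY1) were present in 6 genes (21.4%, against 6.37%). Only Rps7 held both of these motifs. The TATA box letters TATAAA (3 genes, 10.7%, against 13.3%) and the E-box CACGTG (2 genes, 7.14%, against 7.9%) had shares near those of all genes. These matches describe letters near annotated starts and are neither binding sites nor measured start sites.

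The regional labels were checked against marker genes. Zbtb20, a transcription factor of hippocampal neurons, had signals from 2257.6 to 3015.7 in the saline hippocampus and from 484 to 805.2 in the saline neocortex. Cux2, which marks neurons of the upper cortex, ran from 40 to 263.8 and from 462.2 to 618.3. In all treatments the groups of the regions did not overlap in either gene. Prox1, a marker of dentate granule cells, did not separate the saline groups (189.3 to 416 in the hippocampus, 22.1 to 197.3 in the neocortex), though its medians were 257.8 and 75.85. Array medians ran from 376 to 438.5 after the authors' scaling.

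Of the 34 genes, 27 had a mean signal above the filter level of 129.7 (the 30th percentile of all probe sets) and were tested. The other 7 were Rpl32, Rpl35a, Rpl39, Rpl39l, Rps14, Rps15 and Rps20. The signal of a probe set depends on its probes, so it does not rank the genes by RNA. Of the 34 genes, 18 lay in the top 10% of mean level on the array, and these are called the bright genes below. Ribosomal protein genes have many processed pseudogenes, and a probe set may also measure such copies.

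The comparison of the regions asked where the genes stood in the hippocampus relative to the neocortex within each treatment. In saline mice 5 of 27 were called higher in the hippocampus and none lower by limma (adjusted p under 0.05), where 5.36% of all 8695 tested probe sets were called higher and 5.19% lower. In kainate mice 12 were higher and none lower (6.81% and 6.22% of all). That count was 4 with each array centred on its median and 7 without kainate hippocampus replicate 2. In nicotine mice 5 were higher and none lower (4.69% and 4.92% of all), and 3 with median centring or without nicotine neocortex replicate 3. The differences were small. The median over the 27 genes was 0.18 on the log2 scale with saline, 0.22 with kainate and 0.16 with nicotine, while the median of all tested probe sets was 0.0034, 0.013 and 0.0065. The direction was positive for 21, 25 and 22 genes, and the unadjusted p was under 0.05 for 17, 16 and 13. Of all probe sets 50.5%, 51.6% and 51.2% were positive, and 1884, 2099 and 1689 of 8695 had an unadjusted p under 0.05. All hippocampal arrays lay above all neocortical arrays for 4 genes with saline, 9 with kainate and 1 with nicotine, where 3.28%, 5.49% and 3.06% of all probe sets did so. No gene had all its hippocampal arrays below, where 2.93%, 4.51% and 2.92% of all probe sets did.

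**Figure D1:**
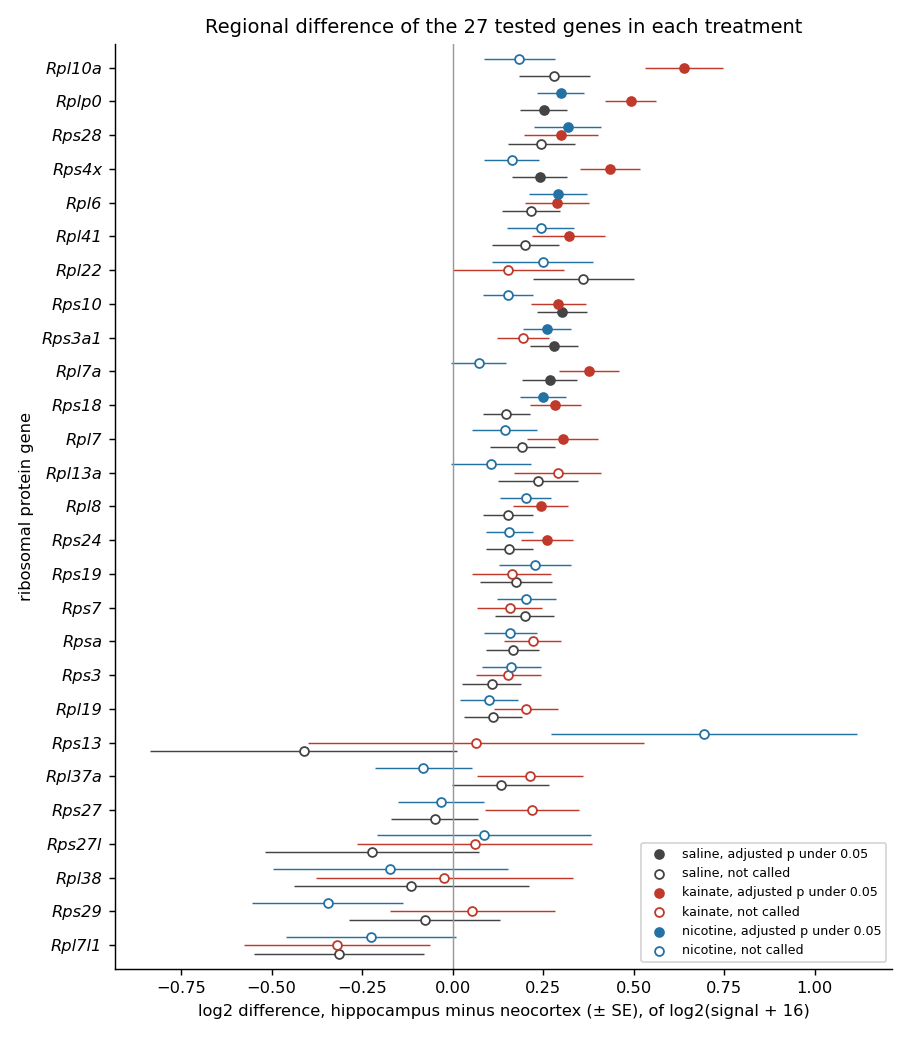
Log2 difference between hippocampus and neocortex (x axis, ± SE, from limma) for each of the 27 tested ribosomal protein genes (y axis), in saline, kainate and nicotine mice. Filled points are called at an adjusted p under 0.05. All filled points lie right of 0, and Rplp0 is filled in all 3 treatments.

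Rplp0, the protein that anchors the stalk on the large subunit, was the gene called in all 3 treatments. Its signal in saline mice had a lowest value of 13469.7, a median of 14315.4 and a highest value of 15239.5 in the neocortex, and 15328.3, 16993.3 and 18506.3 in the hippocampus. In kainate mice the neocortex arrays read 14874.8, 12644.4, 12347.1, 15711.7 and 13374, and the hippocampus arrays 19932.8, 21090.7, 18718.3, 17137.5 and 19896. In nicotine mice the neocortex ran from 11555.3 through a median of 12764.5 to 13915.6, and the hippocampus from 15064.1 through 15416.6 to 17170.5. Every hippocampal array lay above every neocortical array of the same treatment. The log2 difference was 0.25 ± 0.06 (SE, 1.19-fold, adjusted p = 0.00755) with saline, 0.49 ± 0.07 (1.41-fold, adjusted p = 3.03e-06) with kainate and 0.30 ± 0.06 (1.23-fold, adjusted p = 0.00135) with nicotine.

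**Figure D2:**
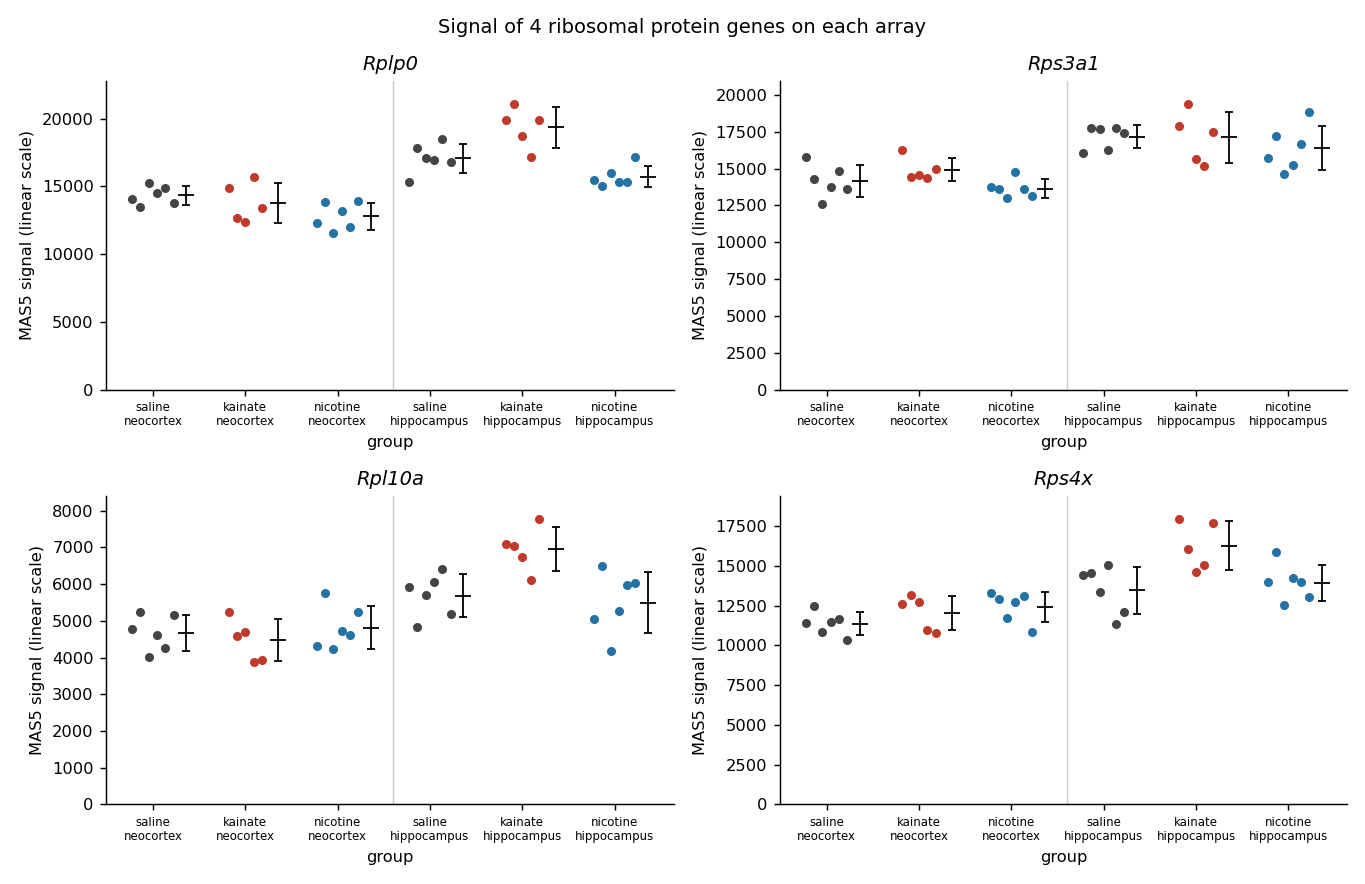
MAS5 signal (y axis, linear, from 0) of Rplp0, Rps3a1, Rpl10a and Rps4x on each of the 34 arrays, by group (x axis). Points are arrays (n = 6, 5 or 6 mice) and bars show the mean ± SD, and the Rplp0 points of the hippocampus lie above those of the neocortex within each treatment.

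Rpl10a, which forms the stalk that guides the exit of transfer RNA, had the widest regional difference among the called genes. In kainate mice its neocortical signals were 5250.9, 4592.2, 4698.3, 3875.5 and 3940.2, and its hippocampal signals 7101.7, 7027.6, 6730, 6122.2 and 7784. The kainate groups did not overlap, and the difference was 0.64 ± 0.11 (SE, 1.56-fold, adjusted p = 3.82e-05). With saline it was 0.28 ± 0.10 (adjusted p = 0.063) and with nicotine 0.18 ± 0.10 (adjusted p = 0.307), and neither was called. Its dimmer probe set was not called in any treatment, and its difference was no larger with kainate (0.43 ± 0.22, adjusted p = 0.221) than with saline (0.47 ± 0.20, adjusted p = 0.143).

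Among the other proteins of the large subunit, Rpl7a was called with saline (0.27 ± 0.08 SE, adjusted p = 0.0159) and kainate (0.38 ± 0.08, adjusted p = 0.00131) and measured 0.07 ± 0.08 with nicotine. Its saline signals were 5812.6, 6114.45 and 7281.4 (lowest, median, highest) in the neocortex and 7069.9, 7528.3 and 7860.5 in the hippocampus, so the groups overlapped there. Rpl6 was called with kainate (0.29 ± 0.09, adjusted p = 0.0237) and nicotine (0.29 ± 0.08, adjusted p = 0.0137). Rpl41, the shortest of the ribosomal proteins, was called with kainate (0.32 ± 0.10, adjusted p = 0.0298), as were Rpl7 (0.30 ± 0.10) and Rpl8 (0.24 ± 0.08). These kainate calls of Rpl6, Rpl41, Rpl7 and Rpl8 were each lost without some single arrays (up to an adjusted p of 0.109, 0.108, 0.127 and 0.139), the kainate hippocampus replicate 2 among them in every case. Each of these kainate calls was also lost with median centring. The nicotine call of Rpl6 was lost without nicotine neocortex replicate 3 (adjusted p = 0.0503) and with median centring.

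Rps3a1, a protein of the small subunit that helps to bind initiation factors, was called with saline and nicotine. Its saline signals ran from 12591.9 through a median of 14032.8 to 15799.1 in the neocortex and from 16049.7 through 17526.4 to 17759.6 in the hippocampus. The saline groups did not overlap, and the difference was 0.28 ± 0.07 (SE, adjusted p = 0.00267). With nicotine it was 0.26 ± 0.07 (adjusted p = 0.00556), and with kainate 0.19 ± 0.07 (adjusted p = 0.0689, not called). The nicotine call was lost with median centring.

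Rps10 was called with saline and kainate. Its saline neocortex ran from 6584.7 through 7663.5 to 8268.4 and its saline hippocampus from 8744.5 through 9225.3 to 9775.2, again without overlap. The difference was 0.30 ± 0.07 (SE, 1.23-fold, adjusted p = 0.00218) with saline and 0.29 ± 0.08 (adjusted p = 0.00659) with kainate. With nicotine Rps10 measured 0.15 ± 0.07 (adjusted p = 0.2).

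Rps4x, the X-linked form of protein S4, was called with kainate (0.43 ± 0.08 SE, 1.35-fold, adjusted p = 0.000232) and saline (0.24 ± 0.08, adjusted p = 0.0348). In kainate mice its neocortical signals were 12596.8, 13146.8, 12733.5, 10993.9 and 10758.7, and its hippocampal signals 17974.4, 16057.8, 14588, 15075.9 and 17696.2. These groups did not overlap, whereas the saline groups did (10361.6 to 12469.1 in the neocortex, 11320.7 to 15069.9 in the hippocampus). The saline call was lost without any of 7 single arrays (neocortex replicates 1, 3 and 6, hippocampus replicates 1 to 4), with adjusted p up to 0.0986. That call was also lost with median centring and with quantile normalization. The other 4 probe sets of Rps4x lay below the filter.

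Rps28 and Rps18, both of the small subunit, were called with kainate and nicotine. Rps18 measured 0.28 ± 0.07 (SE, adjusted p = 0.00454) and 0.25 ± 0.06 (adjusted p = 0.00755), and 0.15 ± 0.06 with saline (adjusted p = 0.156). Rps28 measured 0.30 ± 0.10 (adjusted p = 0.0449) and 0.32 ± 0.09 (adjusted p = 0.022), and another probe set was called in the same treatments (0.41 and 0.41, adjusted p = 0.00388 and 0.00172). Its dimmest probe set was not called (0.0017 and 0.29). The kainate call of Rps28 was lost without any of 7 arrays (neocortex replicates 1 to 4, hippocampus replicates 2, 3 and 5) and the nicotine call without any of 4 (neocortex replicates 3 and 4, hippocampus replicates 5 and 6). Rps24 was called with kainate (0.26 ± 0.07, adjusted p = 0.0101). With median centring the kainate calls of Rps28, Rps10, Rps18 and Rps24 were lost, and that of Rps24 also with quantile normalization (Rps24: adjusted p = 0.405). The bright probe set of Rps24 shares its source sequence entry with that of Rpl7 in the platform annotation, so which gene it measures is uncertain, and its dimmer probe set measured -0.13 ± 0.29.

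The same direction held across treatments for most genes. Of the 27, 20 were higher in the hippocampus by their mean in all 3 treatments, whether called or not, and 2 were lower in all 3. These 2 were Rpl38 (-0.11, -0.02 and -0.17), known for its part in translating Hox mRNAs, and Rpl7l1 (-0.31, -0.32 and -0.23), a paralogue of Rpl7. Both were dim and uncalled in each treatment. In all 3 treatments 1 gene was called, with 7 called in 2, 5 in 1 and 14 in none. Neither the shared direction nor the shared calls were counted over all probe sets, so these counts describe the members only. Across the 27 genes the differences of saline and kainate mice correlated with r = 0.724, those of saline and nicotine with 0.207 and those of kainate and nicotine with 0.395. Rps13, the tested gene with the widest spread within groups (SD 0.80 on the log2 scale), measured -0.41 with saline and 0.69 with nicotine. The correlations were not computed without it, so a low r need not mean that most genes differed. All of these are descriptions over genes measured with the same probes, and genes are not replicates.

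All 18 bright genes were positive with saline and with kainate, and 17 with nicotine, where Rpl37a measured -0.08 ± 0.13. Their medians were 0.20, 0.29 and 0.17, and those of the 1201 other probe sets of the top 10% were 0.03, -0.03 and 0.02. All 13 genes called in at least 1 treatment were bright. The 39 probe sets that list several symbols gave a like picture. Of 36 tested, 11 were higher and 1 lower with saline, 11 and 0 with kainate, and 10 and 0 with nicotine, with medians of 0.22, 0.24 and 0.22. The shares over all tested probe sets were 5.36%, 6.81% and 4.69% higher and 5.19%, 6.22% and 4.92% lower.

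Averaging the regional difference over the 3 treatments, a comparison added after the data had been seen, used all 34 arrays at once. It called 20 of 27 genes higher and none lower, where 12.9% of all probe sets were called higher and 11.9% lower. Rplp0 stood at 0.35 ± 0.04 (SE, adjusted p = 5.06e-09), Rpl10a at 0.37 ± 0.06 (adjusted p = 5.5e-06) and Rps3a1 at 0.245 ± 0.039 (adjusted p = 5.33e-06). Genes not called in any single treatment joined here, such as Rpsa, the laminin receptor protein (0.18 ± 0.04, adjusted p = 0.00127), and Rps7 (0.19 ± 0.05, adjusted p = 0.00359). The 7 tested genes left uncalled were Rpl37a, Rpl38, Rpl7l1, Rps13, Rps27, Rps27l and Rps29.

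By subunit, the 13 tested genes of the large subunit with the stalk had medians of 0.20, 0.29 and 0.14 in saline, kainate and nicotine mice, and 2, 7 and 2 of them were called higher. The 14 tested genes of the small subunit had medians of 0.16, 0.21 and 0.16, and 3, 5 and 3 were called higher. Over all tested probe sets 5.36%, 6.81% and 4.69% were called higher. The difference between subunits was not tested.

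Each array was also summarised by the median deviation of the 27 genes from their means over all arrays. With saline the hippocampal arrays ran from 0.06 to 0.21 and the neocortical arrays from -0.15 to -0.02. With kainate they ran from 0.08 to 0.26 and from -0.16 to -0.02. With nicotine they ran from -0.05 to 0.17 and from -0.18 to -0.002. The regions were apart with saline and kainate and overlapped with nicotine. With each array centred on its own median the kainate groups overlapped too (-0.04 to 0.22 and -0.20 to 0.04).

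**Figure D3:**
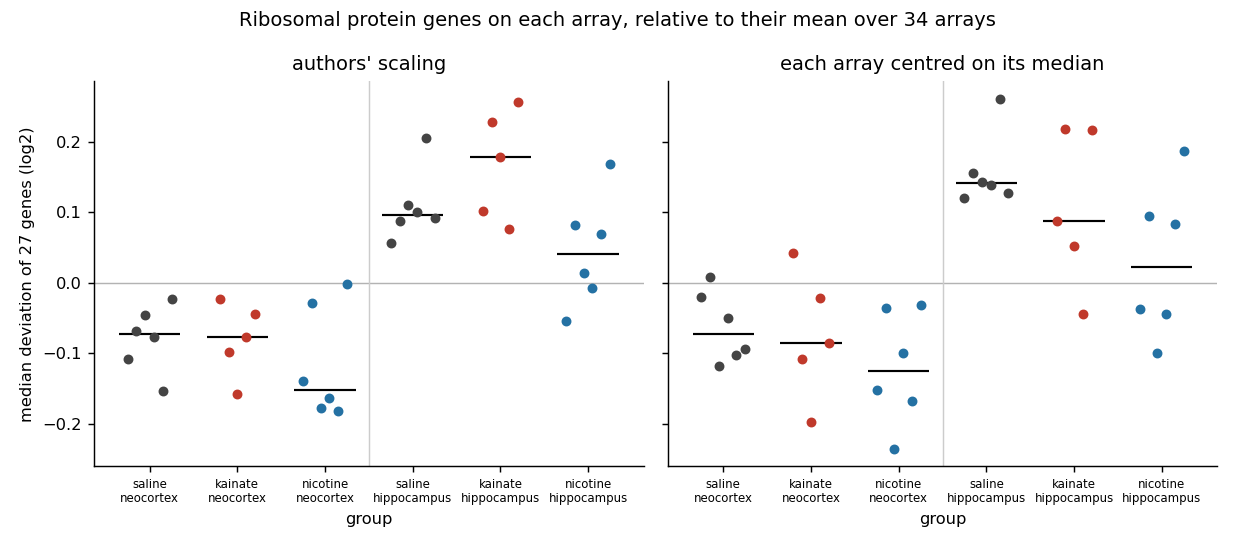
Median deviation (y axis, log2) of the 27 tested ribosomal protein genes on each array, by group (x axis), with the authors' scaling (left) and with each array centred on its median (right). Points are arrays and lines are group medians. With the authors' scaling the saline and kainate hippocampus lie above 0 and the saline and kainate neocortex below it.

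Some arrays stood apart in a check of gaps within groups, which flagged 10 of 168 cases where chance gives about 5%. On saline hippocampus replicate 5 the members' median deviation was 0.2062, against 0.0563 to 0.1102 on the other 5, and without it the saline regional median was 0.168 with 5 genes called. On kainate neocortex replicate 3 the signals of Rpl6, Rpl8 and Rps18 were the lowest of their group, and without it the kainate regional median was 0.202 with 8 genes called. The median deviation of the other bright probe sets was also the lowest of its group on that array (-0.068, group median 0.0055). The arrays fell into 3 clusters by their hybridization control probe sets, and the smallest held only 3 neocortical arrays, 1 per treatment. Within the other clusters the regional median of the genes was 0.149, 0.25 and 0.174 (saline, kainate, nicotine) in the larger and 0.14, 0.165 and 0.152 in the smaller. The latter rest on 1 hippocampal array per treatment. The log2 ratio of 3′ over 5′ control probe sets, a measure of RNA integrity, had medians of 0.20 in the saline hippocampus and 0.13 in the saline neocortex, 0.14 and 0.18 with kainate, and 0.09 and 0.21 with nicotine. With it as a covariate 3 of the saline calls were left.

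Marker genes of neurons and of glia differed between the regions as well. Of 10 markers of dentate granule and CA pyramidal neurons, 6, 6 and 7 were higher in the hippocampus (saline, kainate, nicotine) and 0, 1 and 1 lower, with medians of 1.28, 1.19 and 1.34. Of 6 markers of cortical layers 5 were lower in each treatment, with medians of -1.70, -1.58 and -1.79. Of 10 markers of excitatory and general neurons 3, 2 and 3 were higher and 3, 4 and 2 lower. Of 14 astrocyte markers, 5 were higher and 1 lower in the saline hippocampus, 7 and 0 in the kainate and 5 and 0 in the nicotine hippocampus. Their summed signal ran from 115200 to 128200 in the saline hippocampus and from 96940 to 115500 in the saline neocortex. Of 8 myelin markers 3, 4 and 3 were higher, with sums of 50500 to 69660 and 44180 to 49870 with saline. Markers of microglia were called in 0 of 11 with saline and nicotine and in 10 of 11 with kainate, with sums of 49070 to 78250 in the kainate hippocampus and 19640 to 24430 in the kainate neocortex. The sums run over the 15 astrocyte, 9 myelin and 14 microglial markers measured. The astrocyte marker Gfap had a lowest signal of 1332.3 in the saline neocortex and 3345.4 in the saline hippocampus, and the myelin marker Mbp 18833.8 and 21077.9, so neither was at 0. The part of these cells in the result was not tested, and in bulk tissue a different number of cells and a different amount of RNA per cell cannot be told apart.

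The drug comparisons asked whether the genes had changed 1 week after the injections. None of the 27 was called by limma in any of the 4 comparisons with saline. In the kainate hippocampus 1.84% of all probe sets were called higher and 0.955% lower, in the kainate neocortex 0.0115% and 0%, and with nicotine 0% in both regions. The number of genes with an unadjusted p under 0.05 was 6 in the kainate hippocampus, 0 in the kainate neocortex, 0 in the nicotine hippocampus and 4 in the nicotine neocortex. Over all 8695 probe sets it was 1235, 484, 504 and 835. Medians of the 27 genes were 0.06, -0.06, -0.06 and -0.05 in that order, and the median SE of a gene was 0.0893, 0.0959, 0.0852 and 0.0914.

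**Figure D4:**
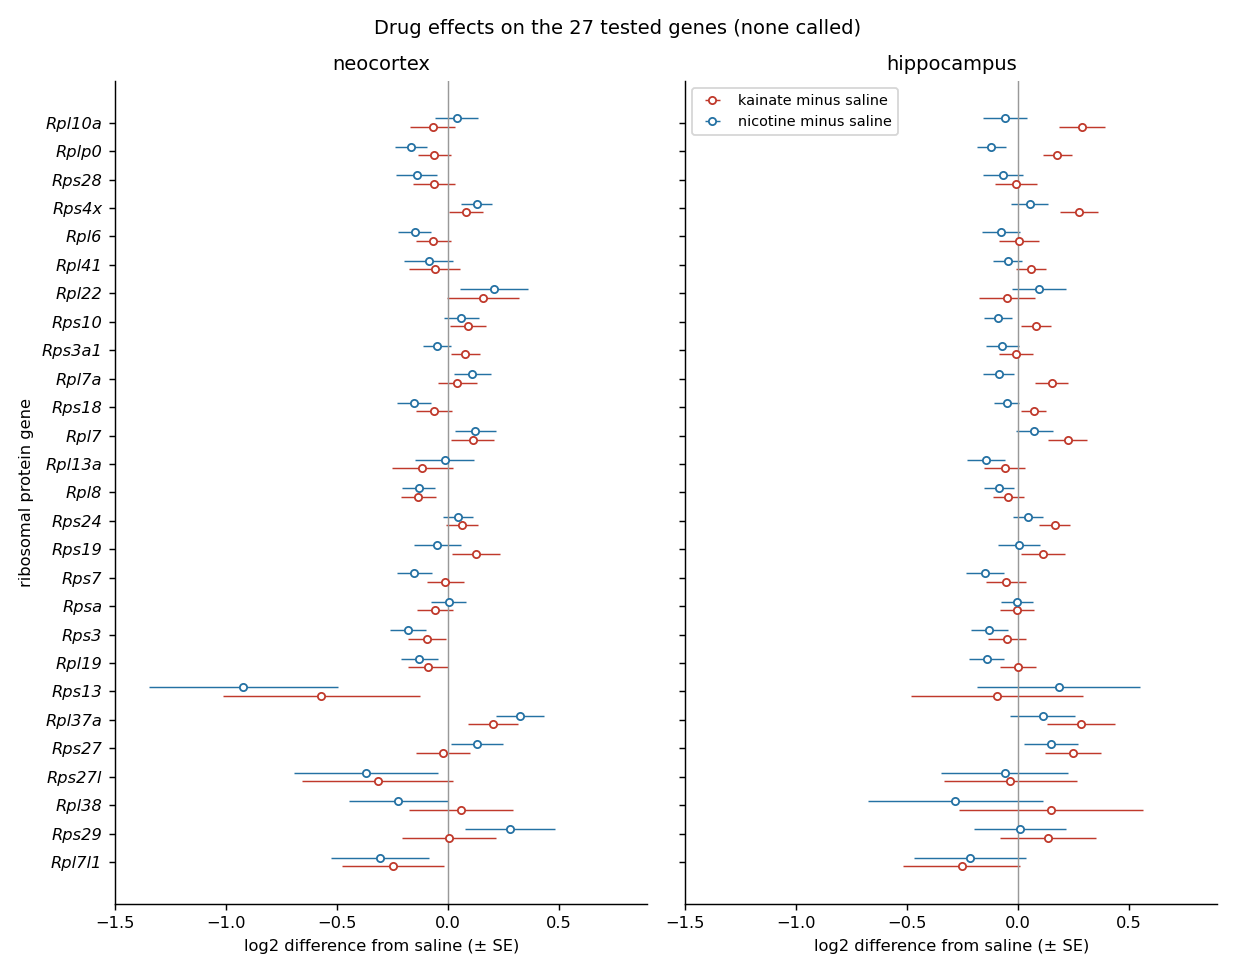
Log2 difference from saline (x axis, ± SE, from limma) of the 27 tested ribosomal protein genes (y axis) in the neocortex (left) and the hippocampus (right), for kainate and nicotine. None was called, and the bars of Rps13 are the widest in the neocortex.

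In the kainate hippocampus the smallest p-values belonged to Rps4x and Rpl10a. Rps4x measured 0.28 ± 0.09 (SE, 95% interval 0.10 to 0.45, adjusted p = 0.0971) and Rpl10a 0.29 ± 0.10 (0.08 to 0.51, adjusted p = 0.166). The Rps4x signals of the kainate hippocampus overlapped those of the saline hippocampus (14588 to 17974.4 against 11320.7 to 15069.9), as did those of Rpl10a (6122.2 to 7784 against 4837.5 to 6413.7). Rplp0 measured 0.18 ± 0.07 (0.04 to 0.32, adjusted p = 0.192). In the same comparison 11 of 11 microglial and 8 of 14 astrocyte markers were higher, with medians of 1.82 and 0.42.

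The scaling bears on the sign here. Centring each array on its median moved the median of all probe sets in the kainate hippocampus from 0.011 to -0.10, and that of the ribosomal protein genes from 0.06 to -0.05. Centring moves every probe set of an array by the same amount, so both shifts follow from the array medians. With either scaling the genes' median lay 0.049 above that of all probe sets. With quantile normalization the genes' median was 0.059. It kept its sign in 22 of 23 alternatives, so only median centring reversed it.

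In the kainate neocortex the smallest p-values were those of Rpl37a (0.20 ± 0.11 SE, adjusted p = 0.903) and Rpl8 (-0.13 ± 0.08, adjusted p = 0.903). With nicotine in the hippocampus they were those of Rplp0 (-0.12 ± 0.06, adjusted p = 0.853) and Rpl19 (-0.14 ± 0.08, adjusted p = 0.859). With nicotine in the neocortex they were those of Rpl37a (0.33 ± 0.11, 95% interval 0.10 to 0.55, adjusted p = 0.404) and Rplp0 (-0.17 ± 0.07, -0.31 to -0.02, adjusted p = 0.497). The Rpl37a groups overlapped, from 6078.7 through a median of 7019.35 to 9167.8 with saline and from 7967.8 through 8595.75 to 12234.5 with nicotine.

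Kainate was also set against nicotine. In the hippocampus 1 gene, Rplp0, was higher with kainate (0.30 ± 0.07 SE, 1.23-fold, adjusted p = 0.0144), where 2.04% of all probe sets were called higher and 0.38% lower. The 5 kainate values of Rplp0 listed above and the nicotine range of 15064.1 to 17170.5 overlapped only at the kainate value of 17137.5. The call was lost without kainate hippocampus replicate 2 (adjusted p = 0.0644) and with each array centred on its median. Of the 27 genes 23 were positive, with a median of 0.105. Of all 8695 tested probe sets 46.8% were positive, with a median of -0.0141. Of the 1201 other bright probe sets 31.4% were positive, with a median of -0.0554. With each array centred on its median, the median was 0.0568 for the genes and -0.0619 for all tested probe sets. This comparison shares its kainate arrays with that of kainate and saline. In the neocortex 0 genes were called by limma (0.0345% of all), 0 had an unadjusted p under 0.05, and the smallest p-values were those of Rps3a1 (0.13 ± 0.07) and Rps7 (0.14 ± 0.08), both at an adjusted p of 0.998.

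Whether a drug effect differed between the regions was tested directly. For kainate 0 genes were called by limma (0.725% of all probe sets higher, 0.069% lower) and 2 had an unadjusted p under 0.05, as did 781 of all 8695 probe sets. The smallest p-values were those of Rplp0 (0.24 ± 0.10 SE, 95% interval 0.04 to 0.44, adjusted p = 0.403) and Rpl10a (0.36 ± 0.15, 0.06 to 0.66, adjusted p = 0.407). The dimmer probe set of Rpl10a measured -0.04 ± 0.29 here. For nicotine 0 were called, as were 0% of all probe sets, and 0 had an unadjusted p under 0.05. The smallest p-values were those of Rps13 (1.11 ± 0.60, adjusted p = 0.994) and Rpl7a (-0.20 ± 0.11, adjusted p = 0.994). The larger count of regional calls with kainate is not shown to differ from that with saline.

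Most of the bright genes also varied together from array to array. After group means were removed, the median correlation between pairs of the 18 bright genes was 0.291 over the 34 arrays, against 0.0277 between pairs of the 1201 other probe sets of the top 10%. Over all 27 tested genes it was 0.0722. The bright genes with a negative mean correlation with the other tested genes were Rpl7 (-0.0909), Rpl37a (-0.0675), Rps4x (-0.062) and Rps24 (-0.0151). The pairs share arrays and scaling. The residual SD was lowest in Rps18 (0.102), Rplp0 (0.102) and Rps3a1 (0.103), and the median over the tested genes was 0.157 against 0.281 over all tested probe sets. Among bright probe sets the contrast was smaller, with a median of 0.132 over the 18 bright genes and 0.169 over the 1201 others. The residual SD was highest in Rps14, Rpl32 and Rps15 (0.946, 0.922 and 0.833), all below the filter.

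Of the paralogues of ribosomal proteins, Rps4x was called as described above, and the tested Rps27l and Rpl7l1 showed no call. Rps27l, a relative of Rps27 that p53 can induce, had group medians from 125.4 to 159.1 and measured -0.22, 0.06 and 0.09 between the regions. Rpl39l, a relative of Rpl39 best known from the testis, had signals from 11.3 to 169 over all arrays and was not tested. Fau, whose product contains ribosomal protein S30 and which the symbol rule does not cover, measured -0.02, 0.29 and -0.38 between the regions, with adjusted p-values from 0.638 to 0.987.

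Other genes of protein synthesis were counted from lists. Of all 8695 tested probe sets, 5.36%, 6.81% and 4.69% were called higher in the hippocampus (saline, kainate, nicotine) and 5.19%, 6.22% and 4.92% lower. Of 44 tested elongation and initiation factors, 2 were higher and 0 lower in the saline hippocampus, 3 and 2 in the kainate and 2 and 2 in the nicotine hippocampus, with medians of 0.06, 0.04 and 0.02. Eef1a1, the factor that brings aminoacyl-tRNA to the ribosome, was higher in each treatment (0.40, 0.43 and 0.38, adjusted p = 0.000425, 0.000486 and 0.000907). Its neuronal and muscle paralogue Eef1a2 was lower with kainate (-0.34, adjusted p = 0.0446) and nicotine (-0.32, adjusted p = 0.0457). Pabpc1, the poly(A)-binding protein (0.45, adjusted p = 0.00236), and Tpt1 (0.25, adjusted p = 0.015) were higher with kainate. Eif4g3, a scaffold of initiation, was lower with kainate (-0.52) and nicotine (-0.35). Eif1b was higher with saline (0.22) and nicotine (0.20).

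Of 45 genes of ribosome assembly and RNA polymerase I, 2 were higher with saline (Npm1, 0.33, and Nop56, 0.32), 1 with kainate (Wdr75, 0.41) and 0 with nicotine, and 0 were lower. Their medians were 0.01, -0.003 and 0.03. Of 58 mitochondrial ribosomal protein genes 2, 1 and 2 were higher and 0 lower, with medians of 0.05, -0.04 and -0.02. Mrpl52 was higher in each treatment (0.27, 0.31 and 0.24), Mrpl24 with saline (0.29) and Mrpl41 with nicotine (0.49). Of 16 S6 kinases and regulators of translation none was called with saline, Fmr1 was lower with kainate (-0.45), and with nicotine Tsc2 was higher (0.49) and Rps6kc1 lower (-0.58). In the kainate hippocampus against saline 0 genes of these 4 lists were called, where 1.84% of all probe sets were called higher and 0.955% lower.

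**Figure D5:**
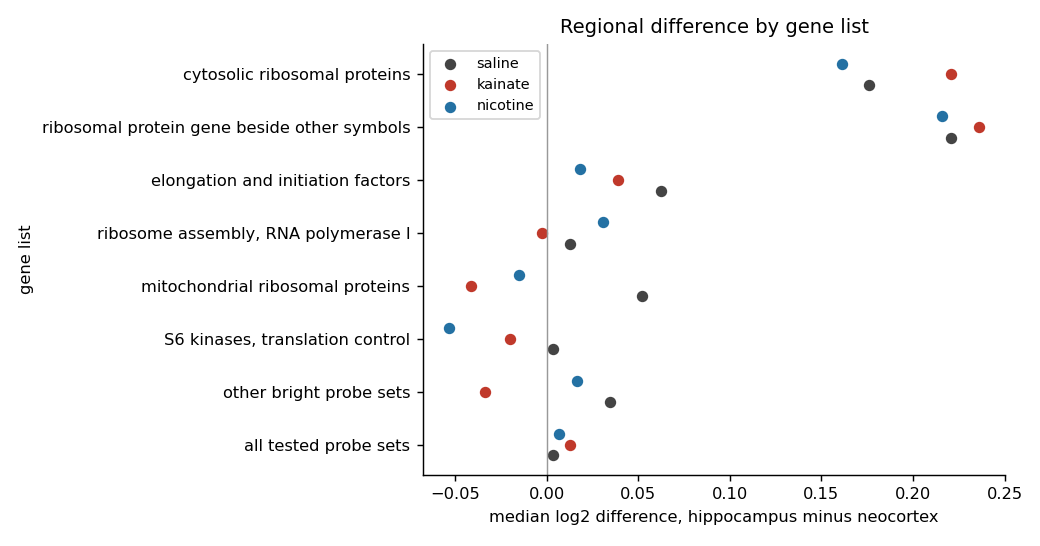
Median log2 difference between hippocampus and neocortex (x axis) for the lists of protein synthesis genes, the other bright probe sets and all tested probe sets (y axis), in saline, kainate and nicotine mice. Cell type marker lists are not drawn. The cytosolic ribosomal proteins and the probe sets that list such a gene beside other symbols lie between 0.16 and 0.24, and the other lists drawn between -0.053 and 0.062.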

How the data were processed

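Signal intensity, on a linear scale, is the unit of the deposited table. MAS5 is the only program that the submitters' processing notes name, and each array had been brought to a trimmed mean of 1000.5 to 1000.6. RNA was extracted with TRIzol and labelled from 12 µg, per the labels' protocols. That scaling was kept, and 16 was added before log2, which understates changes of dim genes. Of the probe sets other than the 66 controls, those past the 30th percentile of mean log2 were tested with limma 3.58.1 (R 4.3.3), moderating variances along an intensity trend. Benjamini-Hochberg adjustment ran over all 8695. Drug comparisons used the 17 arrays of a region, and regional comparisons all 34. Precision is limited by how many arrays each group has.

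The members and lists were chosen with earlier results of these data known. Genes were named by rule: in each comparison the called members with the 6 highest and 6 lowest differences, or else the 2 smallest p-values, the paralogues, the extremes of spread and at most 4 called genes of a list. Other members are named where a count needed it. The extremes of brightness are given only by range, since probe sets cannot be ranked. The steps were tested on simulated data. Alternatives covered the pseudocount, filter, scaling, covariates, blocks, arrays in the fit, variance model and left-out arrays. Figures used Python 3.11.15 and matplotlib 3.10.9. The reported fits did not pair samples by replicate number, and a replicate block was run only as an alternative. For kainate against nicotine in the hippocampus each of the 5 same-numbered pairs correlated above 0.1, but the labels do not pair them.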

Additional observations from a re-analysis of the deposited data

Results flagged for a closer look

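In groups of 5 or 6 arrays, 10 of 168 checks found an array whose gap to its nearest neighbour was wide for the group's range by Dixon's criterion, which chance gives in about 5% of groups. On saline hippocampus replicate 5 the median deviation of the 27 genes was 0.2062, and the same array was the highest for Rpl19 (23710, others 18710 to 20090) and Rpl6 (13470, others 10900 to 11740). Kainate neocortex replicate 3 was the lowest for Rpl6 (8012, others 9913 to 10450), Rpl8 (11700, others 14690 to 15620) and Rps18 (13600, others 16340 to 17190).

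The remaining checks concerned single genes. Rpl37a was highest on nicotine neocortex replicate 6 (12230, others 7968 to 8779). Rpl7a was highest on saline neocortex replicate 2 (7281, others 5813 to 6277). Rps13 was highest on nicotine hippocampus replicate 6 (1503, others 376.4 to 537). Rpl7l1 was lowest on nicotine neocortex replicate 2 (158.4, others 280.9 to 330). The causes were not tested.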

How the results depend on the processing

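No member changed direction where it was called, under any alternative run. The saline regional count of 5 became 3 with the 3′ over 5′ ratio as a covariate and 8 with the control cluster as a block. With the largest control cluster alone, added after the data were seen, it was 1. Median centring left 4 of 12 regional calls with kainate and 3 of 5 with nicotine. With kainate it moved the regional median of all probe sets from 0.013 to -0.055 and that of the genes from 0.22 to 0.15. The genes' median stayed 0.208 above that of all probe sets. The average of the regional difference over the 3 treatments, a different comparison on all 34 arrays, called 20 genes. The kainate effect in the hippocampus gave 2 calls with quantile normalization, Rps4x among them (adjusted p = 0.0396), and 1, Rps4x (0.0407), with all 34 arrays. Kainate against nicotine in the hippocampus gave 3 calls with quantile normalization and 0 with median centring, without the intensity trend or in the largest cluster. The cause of these changes was not tested, beyond the fewer arrays of that cluster.

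Leaving out single arrays gave 4 to 6 calls for the saline regions, 7 to 12 for kainate (7 without kainate hippocampus replicate 2), 3 to 7 for nicotine (3 without nicotine neocortex replicate 3), 0 to 1 for kainate against nicotine in the hippocampus (0 without kainate hippocampus replicate 2) and 0 elsewhere. The median of the genes stayed positive in all regional fits (0.121 to 0.209, 0.153 to 0.255 and 0.131 to 0.2). In the kainate neocortex it changed sign with the replicate block (0.00569). In the regional difference of the kainate effect it was -0.00983 with median centring.

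The labels do not pair the samples by replicate number, and the correlations of same-numbered arrays differed between comparisons. In the hippocampus all 5 same-numbered kainate and nicotine pairs correlated above 0.1 (0.118 to 0.278). Over all treatments 15 of 32 same-numbered pairs within a region did so (-0.172 to 0.282), and 2 of 17 pairs across regions (-0.137 to 0.147). The control clusters ran with the numbers too: the hippocampal arrays of cluster 2 were replicate 1 of each treatment. With the replicate block the regional comparisons called 7, 12 and 5 genes and kainate against nicotine in the hippocampus 1, and the block changed no count by over 1.5 times.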
